A study of Mus musculus with 8 samples.

Results

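The data describe 36 genes of mitosis and the cyclins in inguinal white adipose tissue (ING WAT), the subcutaneous fat depot of the groin, of young mice. The members were taken by gene symbol from a list of cyclins, mitotic kinases, spindle, centromere and cytokinesis genes, by a rule that reads no measured value but was made with earlier results of these data known, and all 36 were found among the 38370 genes with an expression value. Depots of 4 mice aged 21 postnatal days (PN21, weaning, named m1, m49, m138 and m145) were compared with those of 4 mice aged 98 postnatal days (PN98, young adulthood, named m35, m106, m114 and m125). Every mouse was of the strain C57BL/6j, with no transgene, deletion or treatment named in the labels, and was numbered as a separate animal. The labels state neither the sex of the mice nor the diet of the PN98 mice, and the study kept its PN98 mice on either of 2 diets from PN42 on. Messenger RNA of whole, frozen depots was sequenced, so each value is an average over all cell types of the depot, relative to all of its RNA. A smaller share of this RNA from dividing cells and less mitotic RNA per dividing cell cannot be told apart. The number of dividing cells was not measured.

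A cell that divides first passes G1, where D-type cyclins with CDK4 and CDK6 release the E2F factors that drive replication genes, and then S phase, in which the DNA is copied. Cyclin A and B with CDK1 then drive the cell into mitosis, Aurora and Polo-like kinases and kinesin motors build the spindle, the spindle checkpoint holds the anaphase promoting complex until all kinetochores are attached, and RhoA closes the cleavage furrow. Most of these mitotic genes are transcribed only in late S, G2 and M phase, through the DREAM and MuvB complexes, FOXM1 and NF-Y at promoters that carry a cell cycle homology region (CHR) and CCAAT boxes, so that their mRNA is used as a marker of cycling cells. Mature adipocytes are regarded as not dividing, whereas precursors, endothelial cells and immune cells of the depot can.

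Expression is given in FPKM, sequenced fragments normalised for the length of the transcript and for the mapped fragments of the library, summed per gene over its own transcripts. The sums include transcripts that are not annotated as protein-coding, so levels of different genes compare gene sums and not coding RNA. No read counts were given, so the depth of the libraries is unknown. Ages were compared with limma on log2(FPKM + 1) as PN98 minus PN21 over the 16101 genes with a mean of at least 1 FPKM, and a gene is called when its Benjamini-Hochberg adjusted p over all these genes is under 0.05. Differences on this scale understate the change of low genes, and folds are ratios of mean FPKM. Adipocyte markers (*Adipoq*, *Fabp4* and 6 others) summed to at least 13927 FPKM in each of the 8 mice. The Y-linked genes *Ddx3y*, *Eif2s3y*, *Kdm5d* and *Uty* were present in all 8 mice (*Ddx3y* 18.1 to 25.9 FPKM), and *Xist*, the RNA that coats the inactive X chromosome, was at most 0.832 FPKM at PN21 and 0.007 at PN98.

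Mitotic genes were several-fold lower at PN98. Of the 36 members, 27 were called lower and 0 higher, beside 2.91% of all genes called lower and 2.34% called higher. The median log2 difference of the members was -1.80, beside -0.21 for all genes. In 31 of the 36 members all 4 PN98 mice lay below all 4 PN21 mice, which held for 10% of all genes (1610 of 16101), and in 0 members did they all lie above (6.06% of all genes). All 36 members passed the expression filter, but 9 of them had a mean under 1 FPKM at PN98 and passed through their PN21 values. Among the 27 called members the fold ran from 2.80 (*Anln*) to 9.45 (*Birc5*), and adjusted p ran from 0.00552 (*Cdk1*) to 0.0494 (*Anln*).

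The 9 members without a call were the 3 D cyclins, 4 of the 5 spindle checkpoint genes, *Cenpf* and *Racgap1*. Of these, 8 had a lower mean at PN98, and *Ccnd1*, *Bub3*, *Mad2l1* and *Racgap1* did not overlap between the ages. Before adjustment, p lay under 0.05 in 34 of the 36 members and in 4378 of the 16101 genes. The plot of the members by mouse shows both the gap between the ages and the spread among the PN98 mice.

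**Figure D1:**
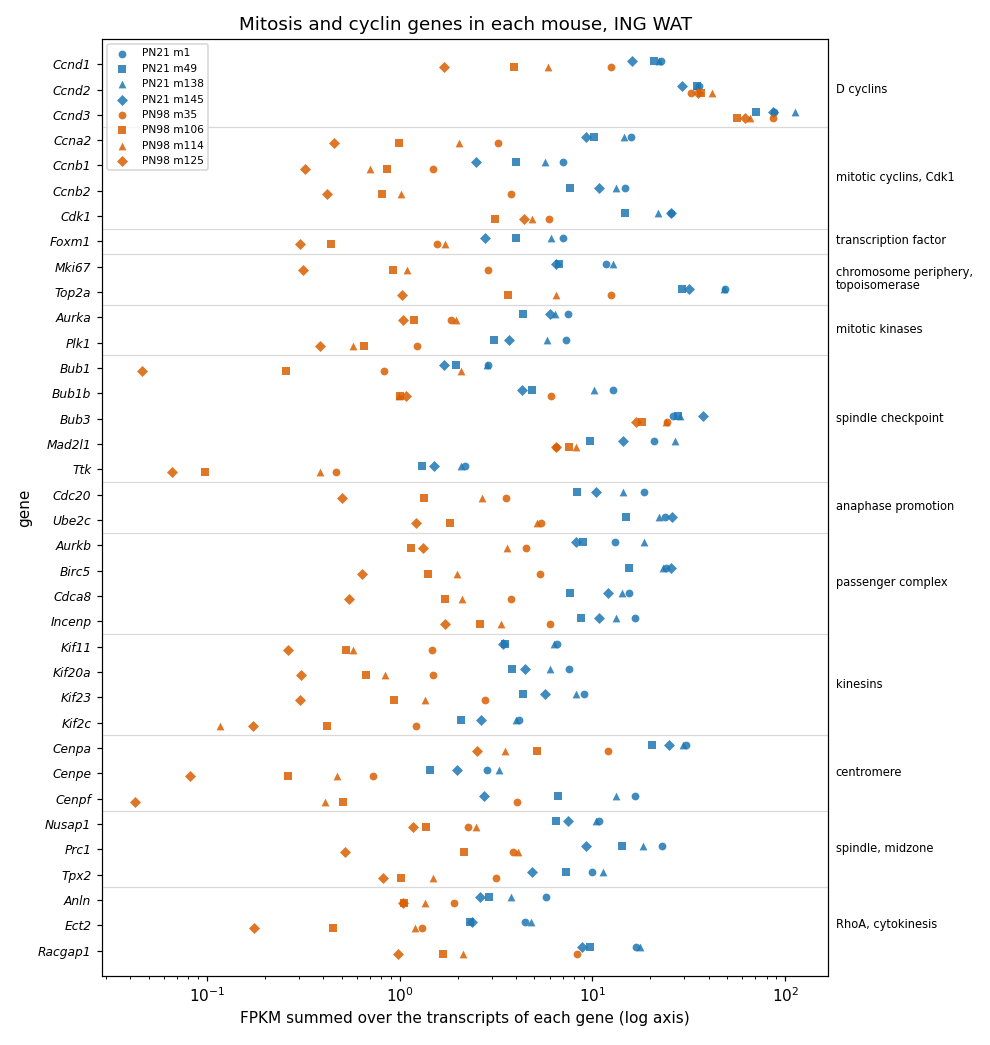
FPKM of the 36 members (rows, ordered by role) in each of 8 mice on a log axis, PN21 in blue and PN98 in orange, with 1 symbol shape per mouse. In 31 rows all orange points lie left of all blue points, *Ccnd2* and *Ccnd3* overlap, and m35 (orange circle) is mostly the rightmost PN98 mouse.

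What the members shared beside their role was looked for in their promoters. RefSeq promoter windows (build GRCm38.p6, from 250 bases before to 50 bases after the transcription start) were found for 28 of the 36 members, with 32 windows. Those of *Ccna2*, *Ccnd1*, *Ccnd2*, *Foxm1*, *Tpx2*, *Aurkb*, *Incenp* and *Kif20a* were not analysed here. The end of the window was found in a GENCODE transcript of the gene for 30 of the 32 windows, but not for *Aurka* and *Mad2l1*. The *Kif2c* window (chr4:117178723-117179022, minus strand) lies away from the start (117182639) of the transcript that held 95.6% of its sum at PN21. The CHR was searched as TTTGAA or TTCGAA, the CCAAT box as CCAAT and the E2F core as TTTGGCG or TTTCCCG or TTTCGCG, each on both strands, and none of these motifs holds another. A CHR match stood in 25 of the 32 windows (78.1%), beside 19.2% of all 32851 windows. CCAAT stood in 26 of the 32 (81.2%), beside 37.4% of all windows, and the E2F core in 4 (12.5%), beside 5.58%. Genes of DNA replication that are no members held the E2F core in 14 of 29 windows (48.3%) and the CHR in 6 (20.7%). Of the other lists of mitotic genes that are no members, the CHR stood in 15 of 20 windows of mitotic kinesins and the spindle, 6 of 8 of condensin, 6 of 9 of cytokinesis, 14 of 33 of the kinetochore and 2 of 7 of the kinases and phosphatases of mitotic entry. These shares describe letters in the windows, not binding, and members whose change was called and members without a call both held the CHR (19 of 23 and 6 of 9 windows).

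The 100 bases before the start are shown for the members in which both motifs lie wholly within these bases. *Ccnb1* and *Ccnd3* are shown as members without a CHR match. The 13 members with a CHR match after the start, among them *Kif23* and *Racgap1*, are not shown. Capitals mark the CHR (TTTGAA, or TTCAAA on the other strand) and the CCAAT box (CCAAT, or ATTGG on the other strand), and each sequence reads 5′ to 3′ toward the gene.
*Cdc20* (chr4:118437344-118437443, minus strand): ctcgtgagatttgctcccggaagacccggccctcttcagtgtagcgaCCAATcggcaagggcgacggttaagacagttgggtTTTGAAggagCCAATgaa
*Ube2c* (chr2:164769829-164769928, plus strand): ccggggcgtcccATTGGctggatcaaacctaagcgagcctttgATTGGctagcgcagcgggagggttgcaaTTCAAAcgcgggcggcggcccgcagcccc
*Kif11* (chr19:37376282-37376381, plus strand): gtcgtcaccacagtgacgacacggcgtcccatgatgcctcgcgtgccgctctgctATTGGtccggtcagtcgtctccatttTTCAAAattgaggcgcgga
*Top2a* (chr11:99024190-99024289, minus strand): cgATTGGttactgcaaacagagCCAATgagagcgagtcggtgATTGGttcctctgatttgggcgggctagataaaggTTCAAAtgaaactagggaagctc
*Cdk1* (chr10:69352913-69353012, minus strand): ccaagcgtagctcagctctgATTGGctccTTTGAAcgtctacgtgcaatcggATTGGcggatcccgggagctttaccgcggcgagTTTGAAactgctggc
*Prc1* (chr7:80294376-80294475, plus strand): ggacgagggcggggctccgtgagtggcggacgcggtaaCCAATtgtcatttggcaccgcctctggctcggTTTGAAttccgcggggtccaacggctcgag
*Bub3* (chr7:131560270-131560369, plus strand): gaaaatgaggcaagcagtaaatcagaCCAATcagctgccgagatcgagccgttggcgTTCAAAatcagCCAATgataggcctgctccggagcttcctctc
*Ccnb1* (chr13:100786487-100786586, minus strand): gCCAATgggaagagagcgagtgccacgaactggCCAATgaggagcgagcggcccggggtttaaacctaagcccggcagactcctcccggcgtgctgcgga
*Ccnd3* (chr17:47593367-47593466, plus strand): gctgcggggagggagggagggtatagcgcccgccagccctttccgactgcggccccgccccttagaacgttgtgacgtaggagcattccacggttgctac

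In *Cdc20*, *Ube2c*, *Kif11*, *Top2a*, *Cdk1* and *Prc1*, all called lower, a CHR match starts 15 to 30 bases before the start and a CCAAT box lies upstream of it. *Bub3* carries the same pair but was not called, with a difference of -0.51. *Ccnb1* was called lower and has CCAAT boxes but no CHR match in its window, and both windows of *Ccnd3* lack one. In 13 members a CHR match lies after the start, as the plot of match positions shows, and in 20 of the 28 members a match starts within 50 bases of the start on either side.

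**Figure D2:**
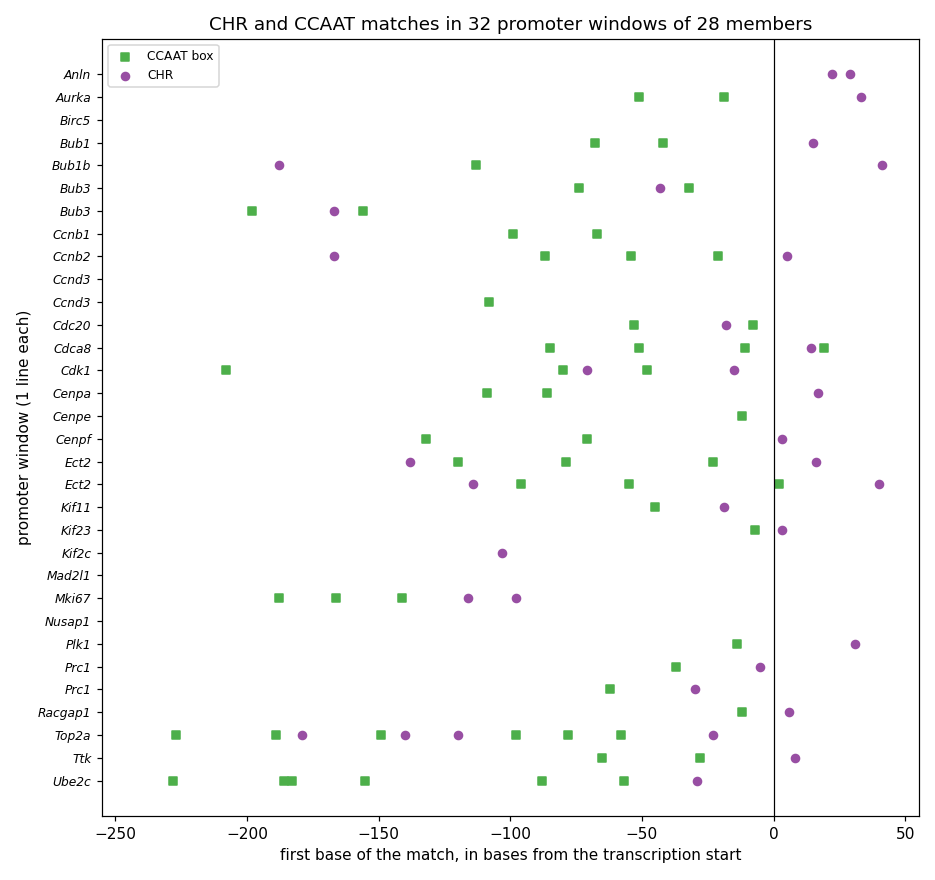
First base of each CHR match (purple circles) and CCAAT match (green squares) in bases from the transcription start (vertical line), for 32 promoter windows of 28 members, 1 row per window. The CHR matches gather within 50 bases of the start (20 members) and the CCAAT boxes mostly upstream of them. *Birc5*, *Mad2l1* and *Nusap1* have neither in the windows used, and the end of the *Mad2l1* window was not found in a GENCODE transcript of the gene.

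The D cyclins act in G1, before mitosis, and none of the 3 was called. *Ccnd1*, the cyclin that growth factors induce, had 22.8, 20.8, 22.1 and 16.0 FPKM at PN21 (m1, m49, m138, m145) and 12.5, 3.90, 5.86 and 1.70 FPKM at PN98 (m35, m106, m114, m125). All PN98 mice lay below all PN21 mice, with m35 closest, but the difference of -1.84 (standard error 0.44) missed the threshold (adjusted p = 0.0522). It passed the threshold in 5 of 17 alternatives on gene sums (adjusted p from 0.00308 to 0.144). *Ccnd2* was at 33.7 ± 3.06 FPKM in PN21 mice and 36.5 ± 3.90 FPKM in PN98 mice (SD, n = 4 each), a difference of 0.11 (standard error 0.15, adjusted p = 0.626). *Ccnd3*, the most abundant member, had 89.4 ± 17.6 FPKM at PN21 and 67.5 ± 13.2 FPKM at PN98 (SD, n = 4 each) and overlapped between the ages (difference -0.40, standard error 0.20, adjusted p = 0.229). *Ccnd2* was the only member with a higher mean at PN98.

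All 4 members of the mitotic cyclin and CDK1 group fell. *Cdk1* (ENSMUSG00000019942), the kinase that drives entry into mitosis, had 25.6, 14.7, 21.9 and 25.7 FPKM in m1, m49, m138 and m145 and 5.94, 3.13, 4.86 and 4.42 FPKM in m35, m106, m114 and m125. The highest PN98 mouse thus had less than the lowest PN21 mouse, and *Cdk1* was 4.79-fold lower (difference -2.03, standard error 0.24, adjusted p = 0.00552). *Ccna2*, cyclin A2 of S and G2 phase, fell 7.39-fold, from 12.4 ± 3.21 to 1.68 ± 1.23 FPKM (SD, n = 4 each, adjusted p = 0.0112). Of the B cyclins, *Ccnb2* fell by 2.46 on the log2 scale, from 11.6 ± 3.11 to 1.51 ± 1.54 FPKM (SD, n = 4 each, adjusted p = 0.0144). *Ccnb1* was the lower of the pair at PN21, at 4.81 ± 1.98 FPKM, and was 0.842 ± 0.482 FPKM at PN98 (SD, n = 4 each, adjusted p = 0.0241).

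*Foxm1*, the transcription factor that activates late cell cycle genes, had 7.01, 4.00, 6.10 and 2.76 FPKM in m1, m49, m138 and m145 and 1.56, 0.442, 1.71 and 0.305 FPKM in m35, m106, m114 and m125. It fell 4.94-fold without overlap between the ages (difference -1.59, standard error 0.34, adjusted p = 0.0368), and m106 and m125 were the low PN98 mice. *Mki67*, which encodes the Ki-67 antigen that coats mitotic chromosomes, had 11.7, 6.73, 12.8 and 6.49 FPKM at PN21 and 2.87, 0.928, 1.09 and 0.316 FPKM at PN98, in the same order of mice. Its difference was -2.24 (standard error 0.36, adjusted p = 0.0160). *Top2a*, the topoisomerase that untangles sister DNA, had the highest gene sum of the called members at PN21. This sum fell 6.68-fold, from 39.5 ± 10.5 to 5.91 ± 4.93 FPKM (SD, n = 4 each, adjusted p = 0.0257). At PN21 a processed transcript made up 17.3 FPKM of it and the protein-coding transcript 13.1 FPKM, beside 21.3 FPKM for the main coding transcript of *Birc5*.

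Both members of the mitotic kinase group, *Aurka* and *Plk1*, fell, and the kinases *Cdk1* and *Aurkb* are described with other groups. *Aurka*, Aurora A of the spindle poles, lay between 4.34 and 7.47 FPKM at PN21 and between 1.04 and 1.96 FPKM at PN98. Its difference was -1.49 (standard error 0.20, adjusted p = 0.00890). *Plk1*, the Polo-like kinase that acts from mitotic entry to cytokinesis, fell 7.01-fold, from 4.96 ± 1.92 to 0.707 ± 0.363 FPKM (SD, n = 4 each, adjusted p = 0.0124).

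In the spindle checkpoint group 1 of 5 members was called, and all 5 had a lower mean at PN98. *Ttk*, the kinase MPS1 at the top of the checkpoint, was the called member, at 1.77 ± 0.424 FPKM at PN21 and 0.254 ± 0.202 FPKM at PN98 (SD, n = 4 each, difference -1.14, adjusted p = 0.0155). It was the lowest of the 36 members at PN21. *Mad2l1*, the inhibitor MAD2 that binds CDC20, lay between 9.67 and 26.8 FPKM at PN21 and between 6.49 and 8.20 FPKM at PN98, without overlap and with an adjusted p of 0.0637. A processed transcript held 43.9% of its sum at PN21. Tested as single transcripts, 1 coding transcript (ENSMUST00000101343) was called lower (difference -1.86, adjusted p = 0.0282). The other (ENSMUST00000116605) was not (difference -0.83, adjusted p = 0.151). *Bub3*, a shared partner of BUB1 and BUBR1 whose promoter is shown above, had 26.1 to 37.5 FPKM at PN21 and 16.8 to 24.3 FPKM at PN98 (adjusted p = 0.144).

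*Bub1* and *Bub1b*, the checkpoint kinase and the pseudokinase BUBR1, overlapped between the ages through 1 PN98 mouse each. *Bub1* had 2.87, 1.97, 2.85 and 1.69 FPKM in the PN21 mice and 0.832, 0.258, 2.07 and 0.046 FPKM in m35, m106, m114 and m125. The high value of m114 came from transcripts without a coding sequence, since its protein-coding transcript (ENSMUST00000028858) had 0.126 FPKM in m114, beside 0.046 to 0.812 FPKM in the PN98 mice and 1.59 to 2.63 FPKM in the PN21 mice. For *Bub1b* the high mouse was m35, with 6.10 FPKM beside 0.995 to 1.08 FPKM in the other PN98 mice and 4.32 to 12.9 FPKM at PN21. A transcript of *Bub1b* with a retained intron held 2.74 FPKM of this value, and the protein-coding transcript did not overlap, at 3.08 to 7.04 FPKM at PN21 and 0.383 to 2.15 FPKM at PN98. These coding transcripts were looked at after the gene sums had been seen, and at the level of single transcripts, where 0.63% of all transcripts were called lower, 8 of the 33 members tested had a called transcript and neither *Bub1* nor *Bub1b* was among them.

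Both members that act with the anaphase promoting complex fell. *Cdc20*, the activator through which the complex marks cyclin B and securin for destruction, had 18.6, 8.32, 14.4 and 10.4 FPKM in m1, m49, m138 and m145 and 3.58, 1.34, 2.68 and 0.505 FPKM in m35, m106, m114 and m125. The ages did not overlap, and the difference was -2.27 (standard error 0.38, adjusted p = 0.0189). *Ube2c*, the ubiquitin-conjugating enzyme of the complex, fell 6.38-fold, from 21.7 ± 4.78 to 3.40 ± 2.18 FPKM (SD, n = 4 each, adjusted p = 0.0135).

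The chromosomal passenger complex, which corrects faulty kinetochore attachments and then moves to the midzone, had all 4 subunits called. *Birc5* (survivin, ENSMUSG00000017716), the subunit that docks the complex at the centromere, showed the largest difference of the 36 members. It had 24.2, 15.4, 23.2 and 25.5 FPKM in m1, m49, m138 and m145 and 5.31, 1.41, 1.98 and 0.637 FPKM in m35, m106, m114 and m125. Its difference was -2.95 (standard error 0.39, adjusted p = 0.00820), a 9.45-fold lower mean, and m35 again was the highest PN98 mouse. *Cdca8* (borealin) fell 6.06-fold, the catalytic subunit *Aurkb* 4.59-fold and the scaffold *Incenp* 3.61-fold, with adjusted p of 0.0165, 0.0308 and 0.0261. At PN98 *Aurkb* was at 2.66 ± 1.69 FPKM and *Incenp* at 3.42 ± 1.84 FPKM (SD, n = 4 each).

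The 4 members of the *Kif* gene family were called lower with differences between -1.54 and -1.83, and *Cenpe*, a kinesin of the centromere, is described with the centromere genes. *Kif11*, the motor that pushes spindle poles apart and whose promoter is shown above, had 6.51, 3.52, 6.30 and 3.45 FPKM at PN21 and 1.48, 0.526, 0.569 and 0.263 FPKM at PN98, in the order of mice used above. Its mean was 6.98-fold lower (adjusted p = 0.0139). *Kif20a*, which carries the passenger complex to the midzone, fell 6.63-fold, *Kif2c*, a microtubule depolymerase at centromeres, 6.73-fold, and *Kif23*, the motor of centralspindlin, 5.08-fold. Their adjusted p were 0.0105, 0.0216 and 0.0270.

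Of the centromere genes, *Cenpa* and *Cenpe* were called. *Cenpa*, the histone H3 variant that defines centromeres, was at 26.4 ± 4.71 FPKM at PN21 and 5.81 ± 4.30 FPKM at PN98 (SD, n = 4 each, difference -2.18, adjusted p = 0.0215). *Cenpe*, which moves chromosomes to the spindle equator, fell from 2.38 ± 0.827 to 0.386 ± 0.278 FPKM (SD, n = 4 each, adjusted p = 0.0232). *Cenpf*, a kinetochore protein of G2 and M phase, had 16.6, 6.64, 13.2 and 2.73 FPKM in m1, m49, m138 and m145 and 4.04, 0.510, 0.411 and 0.0424 FPKM in m35, m106, m114 and m125. Here m35 exceeded m145, so the ages overlapped, and a difference as large as -2.33 came with a standard error of 0.62 and an adjusted p of 0.0681. Transcript ENSMUST00000165798 held 83.6% of the sum at PN21, with 3.63 FPKM in m35 and 1.52 FPKM in m145. The longer coding transcript (ENSMUST00000171929) did not overlap, at 0.932 to 2.26 FPKM at PN21 and 0.0255 to 0.415 FPKM at PN98. Neither was tested as a single transcript, and both were looked at after the gene sums had been seen.

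The 3 genes of spindle assembly and the midzone fell. *Nusap1*, a microtubule-bundling protein, lay between 6.51 and 10.9 FPKM at PN21 and between 1.17 and 2.49 FPKM at PN98 (difference -1.80, standard error 0.23, adjusted p = 0.00714). *Prc1*, which crosslinks antiparallel microtubules of the midzone, fell 6.06-fold from 16.1 ± 5.82 to 2.67 ± 1.67 FPKM, and *Tpx2*, the activator of Aurora A, 5.13-fold from 8.32 ± 2.86 to 1.62 ± 1.06 FPKM (SD, n = 4 each). Their adjusted p were 0.0249 and 0.0214.

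Of the 3 regulators of RhoA in cytokinesis, 2 were called. *Ect2*, the exchange factor that activates RhoA at the furrow, fell 4.47-fold (adjusted p = 0.0423). *Anln*, the scaffold anillin, lay nearest the threshold of all called members, at 5.75, 2.91, 3.78 and 2.60 FPKM at PN21 and 1.91, 1.05, 1.36 and 1.04 FPKM at PN98. *Racgap1*, the centralspindlin partner of *Kif23*, had 16.8, 9.73, 17.6 and 8.87 FPKM at PN21 and 8.34, 1.69, 2.13 and 0.980 FPKM at PN98, the mice again in that order. The ages just did not overlap, since m35 lay below m145, and the difference of -1.95 (standard error 0.48) had an adjusted p of 0.0554. *Racgap1* was called in 4 of 17 alternatives on gene sums (adjusted p from 0.00339 to 0.150).

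**Figure D3:**
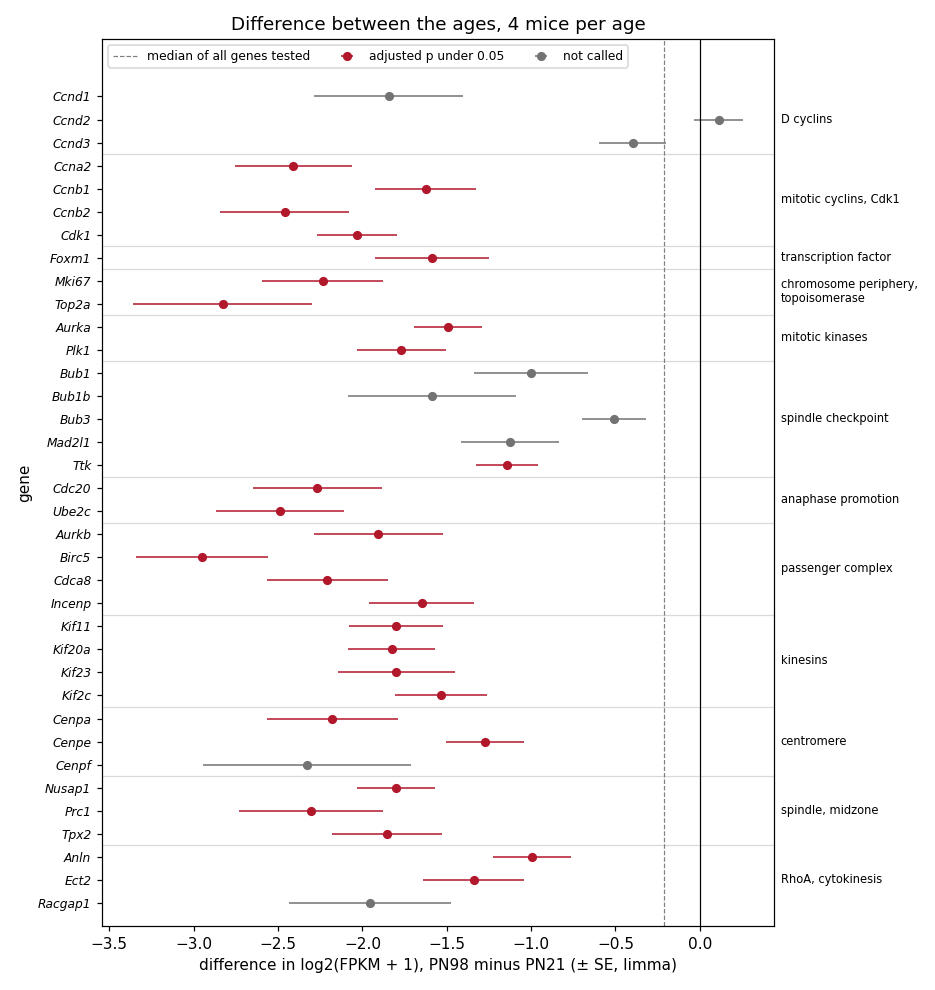
Difference in log2(FPKM + 1) between PN98 and PN21 (points) with its standard error from limma (bars) for the 36 members by role, called members in red and the others in grey. The 27 red points lie between -2.95 and -0.99, *Ccnd2* alone lies above 0, and the dashed line marks the median of all genes at -0.21.

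The members other than the D cyclins and *Bub3*, 32 genes, were used to compare the mice with each other. Summed over these 32 genes, m1, m49, m138 and m145 had 444, 251, 419 and 295 FPKM, and m35, m106, m114 and m125 had 122, 47.8, 71.0 and 30.7 FPKM. The PN98 mice thus differed among themselves more than the PN21 mice did in relative terms, with m35 the highest PN98 mouse in 26 of the 32 genes and m125 the lowest in 27. At PN21 m1 was the highest in 22 genes, m49 the lowest in 19 and m145 the lowest in 13. All 32 genes reached 1 FPKM in every PN21 mouse, whereas 29 did in m35, 17 in m106, 23 in m114 and 11 in m125.

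Markers of other cell types moved with age and between mice. ING WAT encloses a lymph node, and lymphocyte markers varied most at PN98. The 6 B cell markers summed to 198 to 505 FPKM at PN21 and to 519, 111, 34.8 and 5.41 FPKM in m35, m106, m114 and m125, and the 6 T cell markers to 243 to 578 FPKM at PN21 and to 467, 78.3, 19.4 and 13.3 FPKM. Of these 12 markers 0 were called in either direction. Mouse m35 had B cell markers above those of every PN21 mouse and T cell markers within their range, and it lay below all 4 PN21 mice in 30 of the 32 mitotic genes. Markers of germinal centre B cells, which divide (*Gcsam*, *Mybl1*, *S1pr2* and *Rgs13*), summed to 4.74 to 6.55 FPKM at PN21 and to 5.68, 2.64, 3.49 and 1.19 FPKM in m35, m106, m114 and m125. At least 66.7% of each sum came from *S1pr2*, the 1 gene of these that passed the expression filter, which was not called.

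Adipocyte markers summed to 13927 to 25108 FPKM at PN21 and to 36736 to 47420 FPKM at PN98, and 3 of 8 were called higher. Erythroid markers ran the other way, from 6239 to 13445 FPKM at PN21 and from 2845 to 4316 FPKM at PN98, and 5 of 5 tested were called lower. Schwann cell markers were at 131 to 323 FPKM at PN21 and 35.6 to 71.5 FPKM at PN98, with 2 called lower, and skeletal muscle markers at 6.92 to 347 FPKM and 322 to 2179 FPKM, with 1 called higher. Sums of macrophage markers (393 to 657 and 176 to 803 FPKM), endothelial markers (182 to 255 and 80.1 to 296 FPKM) and adipose progenitor markers (443 to 882 and 447 to 793 FPKM) overlapped between the ages, and of the progenitor markers *Dlk1* was called lower. Epithelial markers were at 2.66 to 44.5 FPKM at PN21 and at most 2.49 FPKM at PN98. The part of these cell types in the difference of the members was not tested.

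**Figure D4:**
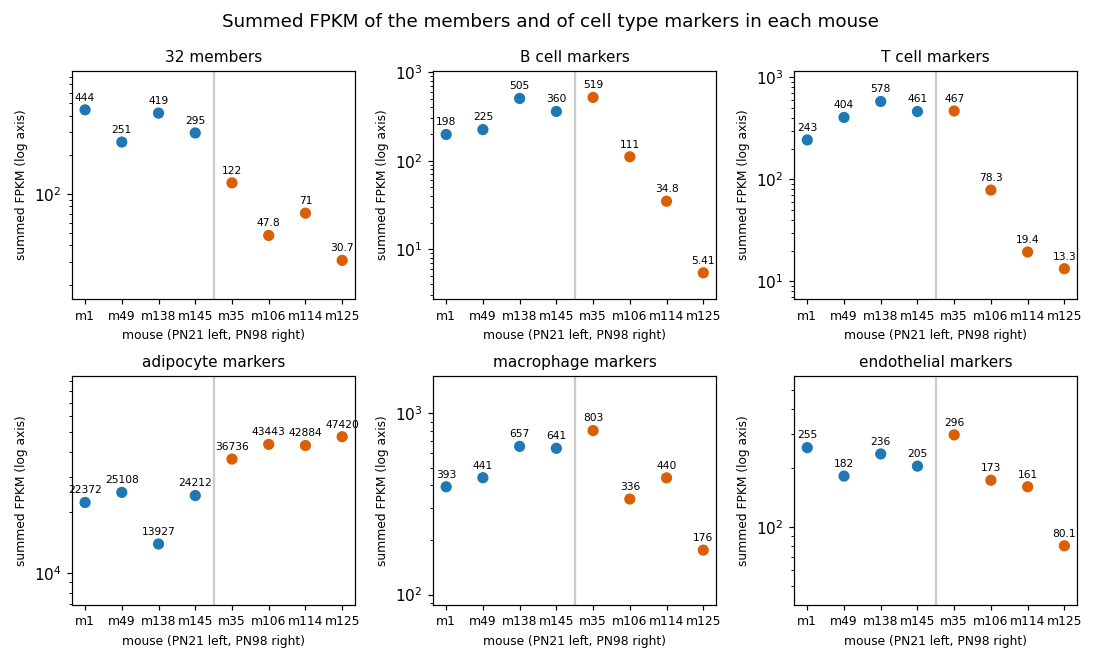
Summed FPKM in each mouse (log axes, PN21 in blue on the left, PN98 in orange on the right) of 32 members and of markers of B cells, T cells, adipocytes, macrophages and endothelial cells, each point labelled with its value. Mouse m35 has 519 FPKM of B cell markers, the highest of the 8 mice, and 122 FPKM of the mitotic genes, the highest of the PN98 mice, where the lowest PN21 mouse has 251 FPKM.

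Other genes of the cell cycle were counted by list. Among 161 tested genes that are no members, 55 were called lower and 0 higher, with a median difference of -0.73. Of the lists of mitotic machinery, 13 of 16 genes of mitotic kinesins and the spindle were called lower, 6 of 10 kinases and phosphatases of mitotic entry, 4 of 7 condensin subunits, 4 of 9 cytokinesis genes and 10 of 31 kinetochore genes. *Hmmr*, a spindle protein, fell 9.73-fold and *Nuf2*, a subunit of the NDC80 complex that binds microtubules, 9.11-fold, with adjusted p of 0.00552 and 0.0124. *Smc2*, a core subunit of condensin, fell 4.64-fold, and *Cks2*, a partner of CDK1, 3.06-fold, with adjusted p of 0.0179 and 0.0109.

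Replication genes of S phase, the step before mitosis, were called lower in 13 of 29, with *Rrm2* (ribonucleotide reductase) 6.95-fold and *Tyms* (thymidylate synthase) 3.27-fold lower (adjusted p = 0.0124 and 0.0159). Of 13 genes of cohesin and separase 2 were called, *Cdca5* (sororin) and *Esco2*, which secure cohesion in S phase. The anaphase promoting complex itself, which is active outside mitosis as well, had 0 of 17 subunits and regulators called and a median difference of -0.22, close to that of all genes. Among E2F and DREAM genes 2 of 16 were called, *E2f2* (3.58-fold) and *Tfdp1* (1.74-fold).

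Of 14 CDK inhibitors and other G1 genes 2 were called, both lower. *Cdk4*, the partner of the D cyclins, fell from 193 ± 23.7 to 82.1 ± 25.3 FPKM (adjusted p = 0.0215), and *Ccne2*, cyclin E2 of the G1 to S transition, fell from 4.12 ± 1.20 to 1.75 ± 0.205 FPKM (SD, n = 4 each, adjusted p = 0.0381). In mean, 12 of the 14 were lower at PN98, and *Cdkn2b* (p15), named after its values were seen, was the 1 gene of the list with all PN98 mice above all PN21 mice, at 4.95 ± 1.99 beside 2.93 ± 0.526 FPKM (SD, n = 4 each, difference 0.56, adjusted p = 0.176). None of the 3 inhibitors of the p21 family was called. *Cdkn1a* (p21) was at 49.7 ± 9.59 and 35.8 ± 4.19 FPKM (adjusted p = 0.159), *Cdkn1b* (p27) at 11.4 ± 1.58 and 10.5 ± 4.23 FPKM (adjusted p = 0.658), and *Cdkn1c* (p57) at 18.7 ± 5.87 and 8.0 ± 2.20 FPKM (SD, n = 4 each, adjusted p = 0.0511).

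The count of called members rested on single mice more than the direction did. Without m106 7 members were called, without m1 or m138 10, without m114 14, without m145 17, without m49 19 and without m35 31. Without m125 5 members lost their call and 0 gained one. The calls over all genes moved as well, to 104 lower (0.644%) without m106 and to 2851 (17.8%) without m35. The share of all genes called lower was 0.828% without m1, 0.972% without m138 and 1.003% without m114. It was 1.22% without m145, 1.26% without m49 and 1.59% without m125. With array weights, which count less the mice that deviate more, 35 members and 21.7% of all genes were called lower. Across these fits and the other settings on gene sums, 7 members kept their call in all 17, and no member changed its direction. These were *Aurka*, *Birc5*, *Ccna2*, *Cdk1*, *Kif20a*, *Nusap1* and *Plk1*. On single transcripts *Kif20a* (adjusted p = 0.191) and *Nusap1* (adjusted p = 0.0773) had no called transcript.

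**Figure D5:**
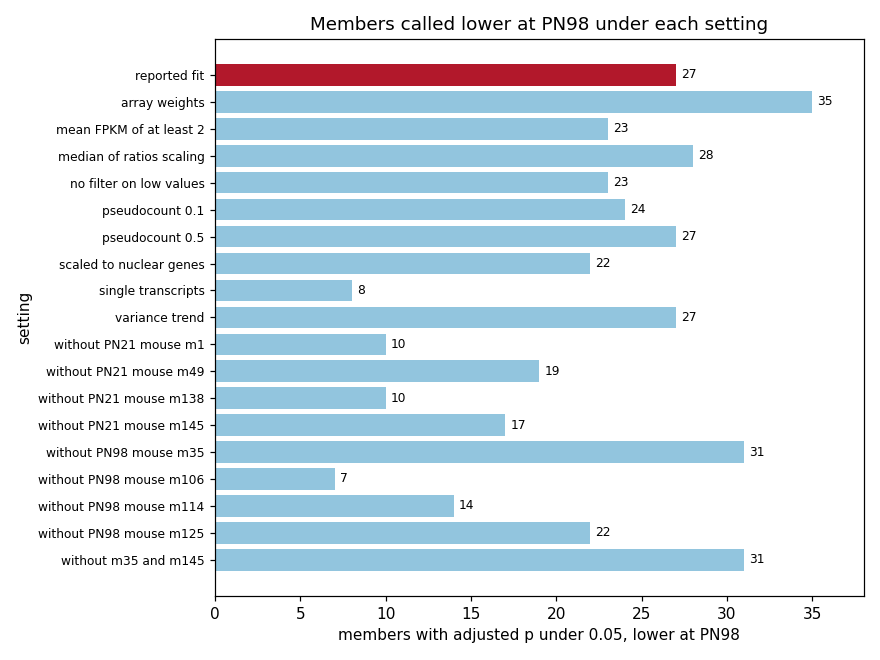
Number of members called lower at PN98 (horizontal bars from 0, adjusted p under 0.05 over all genes) in the reported fit (red) and under each other setting (blue), with the number at the end of each bar. The count runs from 7 without PN98 mouse m106 (0.644% of all genes called lower) to 35 with array weights (21.7%), and single transcripts gave 8.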

How the data were processed

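The authors sequenced poly(A)-selected RNA of 8 mice in paired-end reads, mapped it to mm10 with STAR 2.3.0 and quantified transcripts of a Gencode annotation with Cufflinks 2.1.1, per the labels and the methods of the study. The deposited table holds FPKM per transcript and mouse with decimal commas, and 40380 of 91969 transcripts had values that had lost the decimal mark. These were restored from the SD, average and score that the authors deposited beside them, which cover 10 libraries including 2 without a column of their own. A single reading was found for 40357 transcripts, and 23 with several readings were left out. A second deposited table of the authors holds their fold changes and p-values, which were not used; its FPKM values equalled the restored ones in 5017 of 5017 shared transcripts (relative tolerance 1e-06).

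FPKM were summed per gene through GENCODE vM21 (88737 transcripts) or the single gene named in the file (1928), and 1304 transcripts were unassigned. The file names several genes for some loci, so reads of overlapping genes may be split by the authors' quantification. Ages were compared with limma 3.58.1 in R 4.3.3 on log2(FPKM + 1), with a mean of at least 1 FPKM, 4 mice per age, no covariate and the Benjamini-Hochberg adjustment. The fit was tested on simulated data. Pseudocounts, filters, scaling, weights, single transcripts (log2 FPKM without a pseudocount, above 0 in all mice, mean above 2 at either age) and each mouse left out were tried as alternatives. The lists, like the members, were chosen with earlier results of these data known, although the rule for the members reads no measured value. All 36 members were named, and of the other lists at most 4 called genes each by lowest adjusted p, plus *Cdkn1a*, *Cdkn1b* and *Cdkn1c*. Marker lists are given as sums, 1 marker gene is not reported here, and marker genes named singly were chosen after their values were seen. Motifs were counted in RefSeq promoter windows. Protein sequences were not used here.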

Additional observations from a re-analysis of the deposited data

Results flagged for a closer look

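Of 72 groups of 4 mice (36 members at 2 ages), 4 held a mouse that stood apart, with a gap to the nearest mouse, as a share of the whole range of its group, over the 95% critical value of Dixon's test, where chance alone flags about 1 in 20 groups. PN98 mouse m35 was the high mouse in 3 of these. It had 6.10 FPKM of *Bub1b*, a gap of 0.982 of the range, 4.04 FPKM of *Cenpf* (0.883) and 8.34 FPKM of *Racgap1* (0.843). These 3 genes are among the members that were not called, and without m35 31 of the 36 members were called, beside 17.8% of all genes. The remaining case was PN21 mouse m145, the lowest for *Ccnd2* at 29.1 FPKM (0.885).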

How the results depend on the processing

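The lower expression of the members kept its direction under every alternative on gene sums. Their median log2 difference ran from -2.42 (pseudocount 0.1) to -1.63 (scaled to nuclear genes), and from -2.02 to -1.67 with a mouse left out. Under the alternatives on gene sums with all mice, between 22 (scaled to nuclear genes, 1.61% of all genes) and 35 members (array weights, 21.7%) were called lower. Under any of them 0 were called higher. Single transcripts gave 8 of 33 members, beside 0.63% of all transcripts. The test was then on single transcripts with a filter on zeros, and the cause of the lower count was not tested. With a mouse left out the count ran from 7 (m106, 0.644% of all genes) to 31 (m35, 17.8%), and members called higher from 0 to 0. Members not overlapping between the ages numbered 28 and 30 under the 2 scalings. They numbered 31 to 34 with a mouse left out, where the count cannot fall, so this range does not test the gap. The share of all genes without overlap was not computed for these settings. The called share of the 179 other cell cycle genes with a value was 30.7% in the reported fit. With a mouse left out it ran from 6.15% (m106) to 49.2% (m35). That share was 59.2% with array weights and 20.1% when scaled to nuclear genes. Without m35 and m145, an alternative chosen after seeing the data, 31 members, 44.7% of the other genes and 12.9% of all genes were called lower. Scaling moved the median of all genes from -0.21 to -0.03 (median of ratios) or 0.02 (nuclear genes), and the share of lower among all called genes from 55.5% to 38.3% and 31.2%. No paired analysis was possible because the labels number mice, not pairs. Without read counts, counting error at low FPKM is unknown.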
